A study of Rattus norvegicus with 743 samples.

Results

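Liver RNA of 4 rats given azithromycin at 600 mg/kg/day for 4 days was set against that of 4 vehicle rats. The azithromycin rats were chosen by their label, and the vehicle rats as those with the same study, batch number and vehicle label, out of 680 rats (743 libraries) in the series. Each of the 8 rats was represented by 1 library. Of 12811 genes tested, 6032 differed between the groups. Genes of the antiviral interferon response stood among the largest increases, and genes of drug metabolism, bile acid uptake, amino acid breakdown and glucose output among the decreases.

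The azithromycin group comprised male Sprague Dawley rats dosed at 600 mkd in the labels, read here as mg per kg per day, for 4 days. The vehicle group comprised male Sprague Dawley rats given the vehicle alone, a solution of 0.5percent methylcellulose (w/v) in deionized water, also for 4 days. Per the series' design text the rats were killed 24 hours after the last daily dose and RNA came from frozen liver. The labels used here give neither age, body weight nor route, no drug level, and no liver histology or clinical chemistry, so the RNA cannot be set beside a measured injury. Nothing ties the replicate numbers of the 2 groups to each other, and each library is labelled with an animal of its own.

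Azithromycin is a macrolide antibiotic of the azalide kind, in which a nitrogen atom is built into the large lactone ring of erythromycin. It is basic and partly fat-soluble, collects in lysosomes, the acidic compartments in which cells break down lipids and proteins, and is known for the build-up of phospholipid there (phospholipidosis). The interferon response is the program by which cells resist viruses. Interferon receptors activate factors, among them Stat2 and Irf9, that bind a short promoter element and switch on a common set of effector genes. Hepatocytes, the main cells of liver, make most plasma proteins, carry out gluconeogenesis and the urea cycle, and hold the cytochrome P450s and transporters that clear drugs and bile acids.

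The 4 azithromycin libraries held 16485984 to 20847369 counts and the 4 vehicle libraries 14645911 to 18855567, with RNA integrity numbers of 8.4 to 8.7 and 8.1 to 8.7. Levels are given as CPM, counts after each library total is rescaled by a TMM factor and set to 1000000, and fold changes as log2 of azithromycin over vehicle. A gene was called changed at an adjusted p below 0.05 (edgeR quasi-likelihood test, Benjamini-Hochberg adjustment over all genes tested). Of all genes tested, 47.1% were called, 24.8% higher (3177 genes) and 22.3% lower (2855 genes), and 1958 changed at least 2-fold (1110 higher, 848 lower). All 4 azithromycin rats lay above all 4 vehicle rats for 3065 genes (23.9%) and below them for 2679 (20.9%), and 5368 genes were both called and free of overlap between the groups. The counts for the gene lists below are read against these shares. The mRNA of albumin took 5.76 to 6.86% of the counts in azithromycin rats and 11.8 to 14.0% in vehicle rats, and the TMM factors also differed (1.18 to 1.20 in azithromycin rats, 0.81 to 0.86 in vehicle rats). Scaling by library totals alone raised the median log2 fold change of all genes to 0.53, against 0.02 with TMM factors, and 89.4% of the calls were then higher, against 52.7% with TMM factors. The changes below are relative to the TMM median. Flow cells were read from a code in the names of the read files. By that code, azithromycin rats 1 to 3 and vehicle rats 3 and 4 shared a flow cell, vehicle rats 1 and 2 were on another and azithromycin rat 4 on a further one. Within the shared flow cell 2089 genes were called higher and 2059 lower. Of the called genes named with values, Abcb1b, Akr1b7, Atp6v0d2, Cyp1b1, Cyp2c24, Grin2c, Hspe1, Nr0b2, Sqle, Srebf1 and Usp18 were not called within it (adjusted p = 0.0522 to 0.180). The hepatocyte markers Alb, Ttr, Apoa1, Cps1 and Serpina1 were abundant in all 8 libraries, and the pancreatic genes Prss1 and Pnlip had no counts in any.

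Interferon-stimulated genes made up the list with the largest median change. Of the 27 genes tested, 25 were called higher and 0 lower, against 24.8% and 22.3% of all genes. Their median log2 fold change was 2.77, against 0.02 for all genes. All 25 called genes also separated the groups fully, and 20 were called higher within the shared flow cell. Rsad2, which encodes the antiviral enzyme viperin, was at 454, 563, 496 and 372 CPM in the azithromycin rats and at 3.69, 6.39, 1.51 and 4.79 CPM in the vehicle rats. Every azithromycin rat was far above every vehicle rat (log2 fold change 6.84 ± 0.40 SE, adjusted p = 8.95e-06). Oasl, a relative of the oligoadenylate synthetases that sense double-stranded RNA, stood at 327, 851, 507 and 361 CPM after azithromycin and at 4.29, 4.81, 0.754 and 5.45 CPM after vehicle. The groups did not overlap, azithromycin rat 2 was the highest and vehicle rat 3 the lowest (log2 fold change 7.07 ± 0.62 SE, adjusted p = 8.96e-05).

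The same separation held for the other leading members. Isg15, a ubiquitin-like modifier of antiviral proteins, averaged 448 ± 115 CPM in azithromycin rats and 6.06 ± 3.16 CPM in vehicle rats (SD, n = 4 each; log2 fold change 6.21). Ifit1, which binds viral RNA, averaged 321 ± 155 CPM in azithromycin rats and 2.52 ± 3.01 CPM in vehicle rats (log2 fold change 6.95) and had no counts in vehicle rat 4. The nucleotide kinase gene Cmpk2 and Ifit3 had log2 fold changes of 5.19 and 5.18. Further members named after their values were seen were the dynamin-like GTPase Mx2, the E3 ligase Herc6, the master transcription factor Irf7 and the deubiquitinase Usp18, which limits the response. Mx2 was at 632, 793, 759.8 and 637 CPM in azithromycin rats and at 26.6, 29.6, 5.82 and 43.5 CPM in vehicle rats. The Irf7 values were 335, 526, 455 and 459 CPM after azithromycin and 27.5, 26.2, 6.58 and 40.2 CPM after vehicle. For both genes the lowest azithromycin rat was several times above the highest vehicle rat, and among vehicle rats number 3 was the lowest. Their log2 fold changes were 4.74 and 4.15, that of Herc6 was 4.32 and that of Usp18 3.23. The 2 members that were not called were Stat2 (log2 fold change 0.12, adjusted p = 0.407) and Ifi27 (log2 fold change 0.57, adjusted p = 0.0604).

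**Figure D1:**
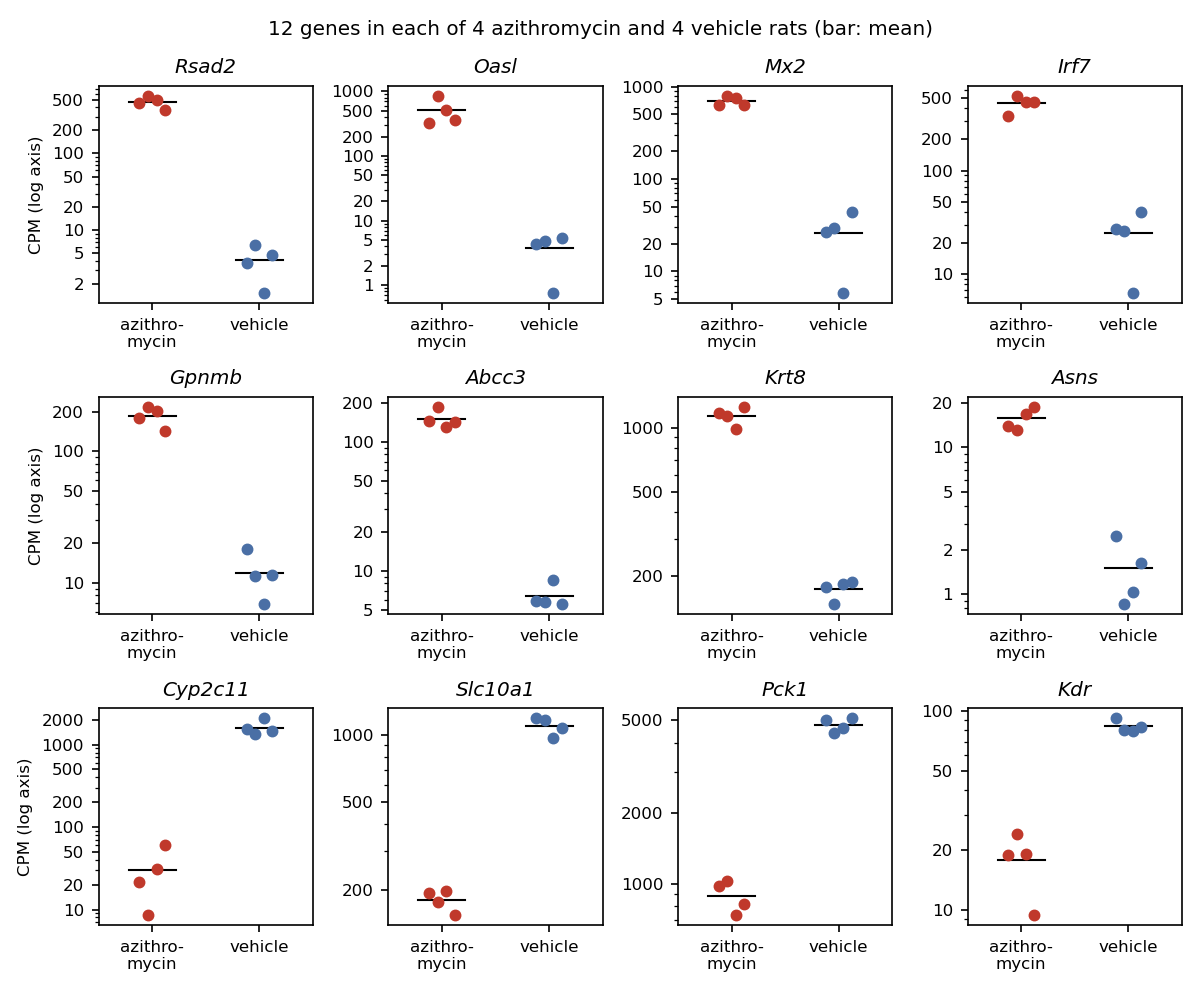
Level of 12 genes in each rat, in CPM on log axes; points are rats (azithromycin left, vehicle right) and bars are means. For the first 8 genes every azithromycin rat lies above every vehicle rat, and for Cyp2c11, Slc10a1, Pck1 and Kdr every azithromycin rat lies below.

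The promoters of these genes are shown because the interferon response acts through a known promoter element. Promoter windows (250 bases before to 50 bases after the annotated start, RefSeq, build GRCr8) were available for 18 of the 28 genes listed. The core of the element, GAAANNGAAA on either strand, was found in 12 of the 18 windows (66.7%) and in 1034 of 27457 windows of all genes (3.77%). Among the 16 called members with a window, 11 held it. The 4 windows below run 5′ to 3′ on the strand of the gene, with each match in capitals. They are Rsad2 (chr6:48788071-48788370, minus strand), Ifit3 (chr1:241527076-241527375, plus strand), Irf7 (chr1:205799974-205800273, minus strand) and Oas1a (chr12:41330216-41330515, plus strand). The matches begin 147 bases before the start in Rsad2, 44 in Ifit3 and 69 in Irf7, read on the opposite strand. In Oas1a 2 matches that overlap each other begin 41 and 35 bases before the start on the strand of the gene.
Rsad2: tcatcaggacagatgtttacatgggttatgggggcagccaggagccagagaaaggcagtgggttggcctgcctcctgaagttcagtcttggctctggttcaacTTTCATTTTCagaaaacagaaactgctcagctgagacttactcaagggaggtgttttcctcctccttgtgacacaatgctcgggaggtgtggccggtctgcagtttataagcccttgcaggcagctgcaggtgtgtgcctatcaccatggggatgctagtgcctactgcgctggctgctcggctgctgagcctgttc
Ifit3: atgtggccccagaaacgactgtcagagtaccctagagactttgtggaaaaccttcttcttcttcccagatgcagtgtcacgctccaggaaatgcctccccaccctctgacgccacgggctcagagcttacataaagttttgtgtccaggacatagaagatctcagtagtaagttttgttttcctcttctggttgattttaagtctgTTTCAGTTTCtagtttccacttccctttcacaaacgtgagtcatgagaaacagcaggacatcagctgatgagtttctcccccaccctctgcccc
Irf7: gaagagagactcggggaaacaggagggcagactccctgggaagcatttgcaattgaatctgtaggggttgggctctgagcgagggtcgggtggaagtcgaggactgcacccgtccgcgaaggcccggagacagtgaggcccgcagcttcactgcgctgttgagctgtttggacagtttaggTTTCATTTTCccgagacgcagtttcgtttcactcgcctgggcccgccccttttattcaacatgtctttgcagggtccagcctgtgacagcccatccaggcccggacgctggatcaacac
Oas1a: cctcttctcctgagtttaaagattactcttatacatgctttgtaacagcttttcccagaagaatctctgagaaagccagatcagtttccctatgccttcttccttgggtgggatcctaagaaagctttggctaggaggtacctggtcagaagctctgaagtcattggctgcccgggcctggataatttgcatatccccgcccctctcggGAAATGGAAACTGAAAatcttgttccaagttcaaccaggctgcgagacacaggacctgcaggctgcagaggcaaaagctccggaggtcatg
A match describes letters in a window and is not a measured binding site, and the genes without a match were not searched further.

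Antigen presentation and the proteasome, which cuts proteins into the peptides that class I molecules display, were also higher. Of 17 antigen presentation genes 13 were called higher and 0 lower (median log2 fold change 1.20), a count that was 8 without azithromycin rat 3 and 7 within the shared flow cell. Of 36 proteasome genes 34 were higher and 0 lower (median 0.74), and 28 were higher within the shared flow cell. Psmb9, a subunit of the immunoproteasome, was at 59.9, 69.3, 64.4 and 63.3 CPM in azithromycin rats and at 9.78, 8.69, 6.03 and 13.3 CPM in vehicle rats. These ranges lay well apart (log2 fold change 2.77 ± 0.20 SE, adjusted p = 1.07e-05). The other immunoproteasome subunits, Psmb10 and Psmb8, had log2 fold changes of 2.53 and 2.04. Tap1, the peptide transporter, averaged 95.6 ± 23.1 CPM in azithromycin rats and 24.7 ± 6.76 CPM in vehicle rats (log2 fold change 1.96). The chaperone gene Tapbp and the class I transactivator gene Nlrc5 had log2 fold changes of 1.78 and 1.85. The increase reached the constitutive proteasome too. Psmd14, a deubiquitinase of its lid, averaged 56.7 ± 9.82 CPM after azithromycin and 20.7 ± 1.92 CPM after vehicle (log2 fold change 1.46, adjusted p = 2.66e-05).

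Most genes on a list known from lipid-laden macrophages in other tissues were higher, although the summed level of the list was lower. Of 11 genes on the first list, 8 were called higher and 2 lower (median log2 fold change 1.44). Against all 89 vehicle rats of the same batch number, in place of the 4, 6 were higher and 2 lower, with a median of 0.73. Their levels summed to 9726 to 12436 CPM in azithromycin rats and 17224 to 20078 CPM in vehicle rats, without overlap. Most of that sum was Apoe, at 11084 ± 1181 CPM in azithromycin rats and 18667 ± 1169.8 CPM in vehicle rats. Gpnmb, a lysosome-associated glycoprotein that is known to rise with lysosomal storage, was at 179, 218, 204 and 142 CPM in azithromycin rats. In vehicle rats it was at 18.0, 11.2, 6.85 and 11.5 CPM. The lowest azithromycin rat was above the highest vehicle rat (log2 fold change 3.97 ± 0.28 SE, adjusted p = 1.68e-05). The macrophage elastase gene Mmp12 had 1885 counts over the 4 azithromycin rats and 9 over the 4 vehicle rats, a ratio of 129 after scaling (95% counting interval 67.7 to 282, which covers counting error alone). Lgals3, encoding the lectin galectin, averaged 68.0 ± 23.7 CPM after azithromycin and 7.83 ± 1.24 CPM after vehicle (log2 fold change 3.12). Trem2, a lipid receptor, was scarce at 1.08 ± 0.441 CPM in azithromycin rats and 0.0751 ± 0.0617 CPM in vehicle rats (log2 fold change 3.77). Its scaled ratio of counts was 14.6 (95% counting interval 5.52 to 54.7), and 22.2 without vehicle rat 1. Fabp5, a fatty acid carrier, had a log2 fold change of 2.32. Against the majority, Apoe and the proton pump subunit gene Atp6v0d2 were lower (log2 fold changes -0.75 and -1.12).

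Of 15 macrophage and Kupffer cell markers, 4 were higher and 4 lower. At 26.7% each, these counts were close to the shares of all genes (24.8% higher and 22.3% lower). The scavenger receptor gene Cd163 was among the higher (log2 fold change 0.93), and Adgre1 and the mannose receptor gene Mrc1 were among the lower (log2 fold changes -0.85 and -0.74). The summed level of these markers was 676 to 1197 CPM in azithromycin rats and 754 to 870.0 CPM in vehicle rats, ranges that overlap. Levels of the monocyte and neutrophil markers summed to 17.5 to 31.3 CPM after azithromycin and 15.9 to 17.8 CPM after vehicle, with Ltf at 0 in all 8 libraries, and the chemokine gene Ccl2 was the called 1 of the 2 tested (log2 fold change 2.94). The scaled ratio of Ccl2 counts was 7.86 (95% counting interval 4.00 to 17.6). Those of the lymphocyte markers summed to 22.9 to 34.2 CPM after azithromycin and 25.8 to 34.8 CPM after vehicle, and none of the 5 tested was called. What part these cells have in the interferon and lipid-loading genes was not tested.

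Lysosomal genes changed in both directions and by modest amounts. Among 29 acid hydrolases, 11 were higher and 6 lower (37.9% higher, against 24.8% of all genes), with a median log2 fold change of 0.22. Manba, which encodes beta-mannosidase, was at 81.9, 61.0, 64.7 and 73.6 CPM in azithromycin rats and at 20.4, 16.5, 25.4 and 18.8 CPM in vehicle rats. The groups were well separated (log2 fold change 1.80 ± 0.14 SE, adjusted p = 1.34e-05). The phosphatase Acp5, the ceramidase Asah1 and the glycogen-splitting Gaa had log2 fold changes of 1.16, 0.97 and 0.93. Of 11 cathepsin and legumain genes 5 were higher and 2 lower, led by Lgmn (log2 fold change 1.24) and Ctsz (1.16), with Ctsd next at 463 ± 65.0 CPM after azithromycin and 235 ± 11.7 CPM after vehicle. The vacuolar ATPase, which acidifies the lysosome, had 10 of 16 subunits higher and 2 lower, led by Atp6v1d (log2 fold change 1.26). Of 22 lysosomal membrane and transport genes 7 were higher and 3 lower, and the 7 became 4 without vehicle rat 1, 2 or 4. The cholesterol exporter gene Npc1 and the membrane protein gene Lamp1 were not called (log2 fold changes -0.19 and 0.14).

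Autophagy genes gave 5 higher and 8 lower of 21 (median log2 fold change -0.18, which becomes 0.33 with library totals). The cargo receptor gene Sqstm1 averaged 908 ± 71.2 CPM after azithromycin and 468 ± 73.0 CPM after vehicle (log2 fold change 0.96). The lysosomal master regulator Tfeb was lower (log2 fold change -0.58), as were the autophagosome gene Gabarapl1 (-0.90) and the initiating kinase gene Ulk1 (-0.70). Genes of phospholipid synthesis were lower in 6 of 19 and higher in 1 (median -0.22, 0.29 with library totals). Lpin2, a phosphatidate phosphatase gene, was at 58.6, 52.6, 60.5 and 76.4 CPM in azithromycin rats and at 103, 162, 353 and 268 CPM in vehicle rats. All azithromycin rats lay below the vehicle rats, whose own values spread more widely (log2 fold change -1.84 ± 0.36 SE, adjusted p = 0.00419). Pemt, which makes phosphatidylcholine by methylation, had a log2 fold change of -0.81.

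Cholesterol synthesis genes rose in 9 of 25 cases and fell in 2 (median log2 fold change 0.46). The 9 became 5 without azithromycin rat 2 or vehicle rat 1, and 4 without vehicle rat 2 or 3. Sqle, encoding squalene epoxidase, was at 35.4, 74.5, 23.1 and 26.5 CPM in azithromycin rats and at 7.15, 3.88, 7.81 and 17.2 CPM in vehicle rats. The groups did not overlap, and azithromycin rat 2 was well above the other azithromycin rats (log2 fold change 2.16 ± 0.54 SE, adjusted p = 0.0135). Sterol export genes were lower in 5 of 11 and higher in none, with a median log2 fold change of -0.22, which is 0.28 with library totals. Abcg5 and Abcg8, which together form the pump that moves sterols into bile, had log2 fold changes of -2.31 and -2.28. Abcg5 was at 14.7, 20.5, 14.6 and 18.6 CPM after azithromycin and at 81.6, 74.5, 79.4 and 104 CPM after vehicle, with no overlap.

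Targets of Nrf2, the factor that answers oxidative and electrophilic stress, were called higher in 16 of 21 cases and lower in 1 (median log2 fold change 0.73). Nqo1, a quinone reductase gene, was at 50.4, 125, 156 and 159 CPM in azithromycin rats and at 3.54, 12.3, 21.5 and 21.3 CPM in vehicle rats. The lowest azithromycin rat was above the highest vehicle rat, and both groups varied several-fold within themselves (log2 fold change 3.06 ± 0.59 SE, adjusted p = 0.00412). Akr7a3, an aldehyde reductase gene, averaged 497 ± 222 CPM after azithromycin and 55.3 ± 13.6 CPM after vehicle (log2 fold change 3.17). Srxn1, which repairs oxidised peroxiredoxin, had the largest change of the list with a well-counted vehicle group (log2 fold change 4.20). The cystine importer gene Slc7a11 had 82 counts over the azithromycin rats and 2 over the vehicle rats, a scaled ratio of 25.2 (95% counting interval 6.76 to 212). The classical targets Gclm and Hmox1 were not called (log2 fold changes -0.44 and 0.25, adjusted p = 0.0942 and 0.312). The core of the Nrf2 element, TGACNNNGC on either strand, was in 3 of 16 promoter windows of the list (18.8%) and in 12.2% of all windows.

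Conjugation enzymes were divided, with 8 of 24 higher and 6 lower (median log2 fold change -0.10, 0.40 with library totals). The higher genes were led by the glutathione transferase gene Gsta3, at 61.6, 144, 100.0 and 117 CPM in azithromycin rats and 5.64, 3.75, 2.81 and 5.93 CPM in vehicle rats. The groups differed by more than 10-fold without overlap (log2 fold change 4.55 ± 0.34 SE), although reads may be shared with near-identical members of the Gsta family. The epoxide hydrolase gene Ephx1 averaged 2740.1 ± 412 CPM after azithromycin and 714 ± 215 CPM after vehicle (log2 fold change 1.94). Gstp1 and Gstm1 had log2 fold changes of 1.88 and 1.52.

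Of 7 export pumps of the hepatocyte, 3 were higher and 2 lower (median log2 fold change 0.08). Abcc3, which moves conjugates and bile acids back into blood, was at 145, 186, 129.6 and 142 CPM in azithromycin rats. In vehicle rats it was at 5.87, 5.73, 8.43 and 5.53 CPM. All azithromycin rats were more than 10-fold above all vehicle rats (log2 fold change 4.55 ± 0.17 SE, adjusted p = 8.72e-07). The drug efflux pump gene Abcb1b was at 1192, 391, 543 and 525 CPM after azithromycin and 221, 246, 178 and 204 CPM after vehicle, with azithromycin rat 1 the highest (log2 fold change 1.64). The blood-side pump gene Abcc4 was also higher (log2 fold change 1.29). The bile salt export pump gene Abcb11 was lower at 411 ± 30.7 CPM in azithromycin rats, against 863 ± 74.5 CPM in vehicle rats (log2 fold change -1.07), and so was Abcc6 (-1.14). Of 11 uptake transporters 7 were lower and 1 higher (median log2 fold change -1.01). Slc10a1, the main importer of bile salts, was at 194, 178, 199.5 and 155 CPM after azithromycin and 1198, 1173, 970.2 and 1077 CPM after vehicle. Every azithromycin rat was more than 4-fold below every vehicle rat (log2 fold change -2.60 ± 0.11 SE, adjusted p = 8.72e-07). The organic anion carriers Slco1a4 and Slco2a1 had log2 fold changes of -2.21 and -1.99.

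Bile acid synthesis and control genes were lower in 8 of 14 and higher in 2 (median log2 fold change -0.65). With library totals 4 were lower and 4 higher (median -0.14). The bile acid sensor's repressor Nr0b2 was at 37.2, 18.3, 3.47 and 8.17 CPM in azithromycin rats and 261, 106, 100.0 and 150.4 CPM in vehicle rats. The groups did not overlap, with spread of several fold in azithromycin rats (log2 fold change -3.20 ± 0.72 SE, adjusted p = 0.00840). The side-chain enzymes Amacr and Acox2 and the conjugating enzyme Baat had log2 fold changes of -1.56, -1.46 and -1.27. Cyp7a1, the rate-limiting enzyme, and Cyp8b1 were not called (log2 fold changes 0.51 and 1.15, adjusted p = 0.455 and 0.115).

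P450 genes of drug and steroid metabolism were called lower in 17 of 27 cases (63.0%, against 22.3% of all genes) and higher in 2, with a median log2 fold change of -1.44. Cyp2c11, the leading P450 of male rat liver, was at 21.6, 8.54, 31.4 and 60.6 CPM in azithromycin rats and 1529, 1352, 2115 and 1451 CPM in vehicle rats. The highest azithromycin rat was more than 20-fold below the lowest vehicle rat (log2 fold change -5.72 ± 0.62 SE, adjusted p = 2.54e-04). Cyp3a18 averaged 117 ± 43.4 CPM after azithromycin and 1741 ± 237 CPM after vehicle (log2 fold change -3.90). Cyp3a23/3a1, Cyp2b1, Cyp2b2 and Cyp2d2 had log2 fold changes of -3.07, -3.68, -2.72 and -2.51. Reads may be shared within the Cyp2b and Cyp3a families, whose members are nearly identical. The exceptions were Cyp2c24 (log2 fold change 2.28) and the scarce Cyp1b1 (1.63). Cyp1b1 had a scaled ratio of counts of 3.20 (95% counting interval 1.61 to 7.06). The male-typical Cyp2c13 was also lower (log2 fold change -2.37), and the female-typical Cyp2c12 was not called (0.51, adjusted p = 0.442). Of 7 tested genes on a list of male- and female-typical genes, 4 were lower and 1, the prolactin receptor gene Prlr, was higher. With all vehicle rats of the batch number as reference, the sign of Prlr turned, and 4 of the list were lower and 0 higher. Of 11 genes of the growth hormone axis, which sets this sex pattern, 6 were lower and 0 higher, among them the receptor gene Ghr (-1.06) and Igf1 (-0.97).

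Genes for plasma proteins were lower as a body. Of 19 coagulation genes 18 were lower and 0 higher (median log2 fold change -0.96), and of 20 other secreted proteins 16 were lower and 0 higher (median -1.04). Klkb1, encoding plasma prekallikrein, was at 148, 122, 136 and 148 CPM in azithromycin rats and 456, 479, 493 and 448 CPM in vehicle rats. The groups were tight and far apart (log2 fold change -1.76 ± 0.09 SE, adjusted p = 1.47e-06). Fibrinogen Fga, prothrombin F2, apolipoprotein Apoc3 and transthyretin Ttr had log2 fold changes of -1.05, -1.02, -1.73 and -0.88. Apoa1, named after its values were seen, was not called (log2 fold change 0.52, adjusted p = 0.0573). Complement genes were lower in 13 of 20 and higher in 2, although their median of -0.48 turned to 0.02 with library totals. Acute phase genes were divided, 4 of 16 higher and 8 lower (median -0.30, 0.21 with library totals). Among the higher, the iron-siderophore binder Lcn2 averaged 28.9 ± 11.2 CPM after azithromycin and 3.23 ± 2.39 CPM after vehicle (log2 fold change 3.17), and Orm1 and the lipopolysaccharide binder Lbp had log2 fold changes of 2.19 and 1.25. The interleukin receptor gene Il6r was lower (-1.64).

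Amino acid and glucose metabolism followed the same direction. Of 25 urea cycle and amino acid breakdown genes 22 were lower (88.0%, against 22.3% of all genes) and 0 higher, with a median log2 fold change of -1.27. Sds, serine dehydratase, was at 3.38, 3.54, 16.0 and 22.9 CPM in azithromycin rats and 88.9, 79.4, 584 and 338 CPM in vehicle rats. The groups did not overlap but each varied more than 6-fold within itself (log2 fold change -4.57 ± 0.98 SE, adjusted p = 0.00686). Liver glutaminase Gls2, the kynurenine enzyme Kmo and the transaminase Gpt had log2 fold changes of -2.37, -2.12 and -2.02. The urea cycle entry enzymes Cps1 and Otc averaged 2064 ± 366 and 172 ± 35.5 CPM in azithromycin rats and 5668 ± 2147 and 498 ± 51.0 CPM in vehicle rats (log2 fold changes -1.46 and -1.53). Of 16 glucose and glycogen genes 9 were lower and 1 higher (median -1.16). Pck1, a rate-controlling enzyme of gluconeogenesis, was at 973, 1029.7, 732 and 818 CPM after azithromycin and 5001, 4408, 4632 and 5114 CPM after vehicle. The groups were separated by more than 4-fold (log2 fold change -2.43 ± 0.13 SE, adjusted p = 1.47e-06). Ppp1r3b, which targets a phosphatase to glycogen, and Slc37a4, G6pc and Fbp1, which complete glucose release, had log2 fold changes of -2.37, -1.69, -1.63 and -1.60. PPARalpha targets were lower in 15 of 27 and higher in 2, with a median of -0.46 that turned to 0.05 with library totals. Ehhadh, a peroxisomal oxidation enzyme gene, had a log2 fold change of -1.40.

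Hepatocyte transcription factors and nuclear receptors were lower in 14 of 19 and higher in 1 (median log2 fold change -0.58). With library totals 6 were lower and 4 higher (median -0.07). The pioneer factor Foxa1 was at 9.97 ± 1.32 CPM in azithromycin rats and 28.6 ± 9.18 CPM in vehicle rats (log2 fold change -1.53). The thyroid hormone receptor Thrb, Ppara, the shared receptor partner Rxra and the differentiation factor Cebpa had log2 fold changes of -1.42, -1.42, -1.24 and -1.01. Circadian clock genes were lower in 10 of 15 and higher in 0 (median -1.14). The clock output factor Dbp was at 4.82, 3.62, 6.79 and 12.2 CPM after azithromycin and 29.9, 15.7, 128 and 106 CPM after vehicle. Vehicle rats 1 and 2 were several times below vehicle rats 3 and 4, and all were above the azithromycin rats (log2 fold change -3.34 ± 0.76 SE, adjusted p = 0.00852). Vehicle rats 1 and 2 are also the pair on another flow cell, and the labels used here give no time of day for the killing. What part either has in the clock genes was not tested.

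Targets of Atf4, the factor of the amino acid and integrated stress response, were higher in 11 of 20 and lower in 1 (median log2 fold change 1.21). Slc7a1, an importer of cationic amino acids, was at 9.41, 10.5, 9.24 and 6.16 CPM in azithromycin rats and 0.602, 0.0658, 0.548 and 0.325 CPM in vehicle rats. The groups did not overlap (log2 fold change 4.51 ± 0.38 SE, adjusted p = 1.78e-05). Asns, asparagine synthetase, was at 14.0, 13.3, 16.9 and 18.9 CPM after azithromycin and 2.48, 0.856, 1.03 and 1.63 CPM after vehicle. It too was free of overlap (log2 fold change 3.41 ± 0.28 SE). The folate enzyme Mthfd2, the stress factor Atf3, the serine synthesis enzyme Phgdh and the amino acid carrier Slc7a5 had log2 fold changes of 3.42, 2.86, 2.71 and 2.53. Sesn2 moved the other way (-0.88), and the stress factor Ddit3 was not called (0.31, adjusted p = 0.0803). The core of the Atf4 element, TGATGNAA on either strand, was in 4 of 19 promoter windows of the list (21.1%) and in 3.82% of all windows. One of the 4 belonged to Slc7a1 (chr12:11664238-11664537, plus strand, RefSeq, GRCr8), whose match in capitals begins 30 bases before the start.
Slc7a1: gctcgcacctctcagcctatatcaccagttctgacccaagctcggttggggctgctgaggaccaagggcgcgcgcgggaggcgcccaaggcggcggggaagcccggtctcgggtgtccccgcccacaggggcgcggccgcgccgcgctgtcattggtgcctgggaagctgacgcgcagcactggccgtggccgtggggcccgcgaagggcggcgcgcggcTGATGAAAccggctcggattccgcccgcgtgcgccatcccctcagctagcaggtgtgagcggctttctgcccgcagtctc
Chaperones of the endoplasmic reticulum did not rise with them, and 7 of 20 were lower and 0 higher (median log2 fold change -0.24, 0.26 with library totals), a count of 12 lower without vehicle rat 1. The secretory regulator Xbp1 was lower (log2 fold change -1.35) and the main chaperone Hspa5 was not called (0.10).

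Targets of p53, a factor that answers DNA damage, were higher in 11 of 14 and lower in 0 (median log2 fold change 1.07). The death receptor gene Fas was at 28.3, 29.0, 28.6 and 35.8 CPM in azithromycin rats and 6.70, 3.09, 4.18 and 5.53 CPM in vehicle rats. The groups were more than 4-fold apart (log2 fold change 2.65 ± 0.21 SE, adjusted p = 1.28e-05). Phlda3, Zmat3, Ccng1 and the apoptosis gene Bax had log2 fold changes of 2.39, 2.29, 1.95 and 1.29. Genes of the cytoskeleton and of the injured hepatocyte were higher in 13 of 16 and lower in 0 (median 1.26). Krt8, a keratin of the hepatocyte cytoskeleton, was at 1171, 1129.5, 983 and 1251 CPM after azithromycin and 177, 148, 184 and 188 CPM after vehicle. Its partner Krt18 averaged 640.1 ± 70.9 CPM after azithromycin and 135 ± 10.7 CPM after vehicle. Neither gene overlapped between the groups (log2 fold changes 2.70 ± 0.11 and 2.24 ± 0.11 SE). The tubulins Tubb6 and Tubb2a and the membrane partners S100a10 and Anxa2 had log2 fold changes of 3.52, 2.81, 3.48 and 2.83.

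Markers of the sinusoidal and other endothelial cells were lower in 11 of 12 and higher in 0 (91.7% lower, against 22.3% of all genes; median log2 fold change -1.66), and 9 were lower within the shared flow cell. Kdr, the main receptor of vascular growth factor, was at 19.0, 24.3, 19.1 and 9.46 CPM in azithromycin rats. In vehicle rats it was at 92.5, 80.0, 79.7 and 83.3 CPM. All azithromycin rats lay below all vehicle rats, with azithromycin rat 4 the lowest (log2 fold change -2.22 ± 0.24 SE, adjusted p = 1.31e-04). Flt4 and the scavenger receptor Stab2 had log2 fold changes of -2.22 and -2.10, and the angiopoietin receptor Tek and the Fc receptor Fcgr2b -1.81 and -1.73. The summed level of the 12 markers was 119 to 244 CPM after azithromycin and 493 to 551 CPM after vehicle. In bulk liver, fewer endothelial cells and less RNA per cell cannot be told apart. Of 8 cholangiocyte markers tested 3 were higher and 0 lower (37.5% higher, against 24.8% of all genes). The list summed to 47.6 to 63.5 CPM after azithromycin and 17.8 to 33.6 CPM after vehicle. Much of that sum was Epcam, which averaged 39.5 ± 4.06 CPM in azithromycin rats and 14.5 ± 3.10 CPM in vehicle rats (log2 fold change 1.45). Stellate cell markers summed to 496 to 577 CPM after azithromycin and 422 to 624 CPM after vehicle, which overlap.

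Proliferation genes were higher than in the study's own vehicle rats, but levels as high were common in other vehicle rats. Of 27 genes 25 were called higher and 0 lower (median log2 fold change 1.40). The proliferation antigen gene Mki67 was at 5.33, 4.67, 4.03 and 4.83 CPM in azithromycin rats and 0.752, 0.658, 1.03 and 1.79 CPM in vehicle rats, with no overlap (log2 fold change 2.17, but -0.10 against the 89 vehicle rats described next). The replication helicase gene Mcm5 had a log2 fold change of 3.28 and the mitotic kinase gene Aurkb 3.36 (0.52 and no longer called against the 89, adjusted p = 0.291). The scaled ratio of Aurkb counts was 10.8 (95% counting interval 5.32 to 25.4), and 16.4 without vehicle rat 1. Within the shared flow cell 15 of the list were higher. Against all 89 four-day Sprague Dawley vehicle rats of the same batch number in place of the 4, 9 of the genes were higher, 0 lower, and the median was 0.17. On a scale shared by 217 rats, Mki67 ran from 3.42 to 4.48 CPM in azithromycin rats, from 0.568 to 1.53 CPM in the study's own vehicle rats and from 0.568 to 12.3 CPM in the 89 vehicle rats, of which 54 reached the lowest azithromycin rat. For Mcm5 1 of the 89 did. The interferon list gave 26 higher genes and a median of 2.69 in the same comparison, and the endothelial list 11 lower genes and a median of -1.79.

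Genes of the translation and energy machinery changed little per gene. Of 76 cytosolic ribosomal proteins 45 were higher and 1 lower, with a median log2 fold change of 0.29, and 29 were higher without vehicle rat 1 or vehicle rat 3. Mitochondrial ribosomal proteins, part of the organelle's bacterial-type ribosome, were higher in 29 of 73 and lower in 5 (median 0.18). Of 13 mRNAs encoded in mitochondrial DNA 10 were lower and 0 higher (median -0.47, 0.04 with library totals). Within the shared flow cell 5 of these mRNAs were lower, and 5 against the 89 vehicle rats. Of 69 nuclear genes of the respiratory complexes 31 were lower and 1 higher (median -0.20, 0.30 with library totals).

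**Figure D2:**
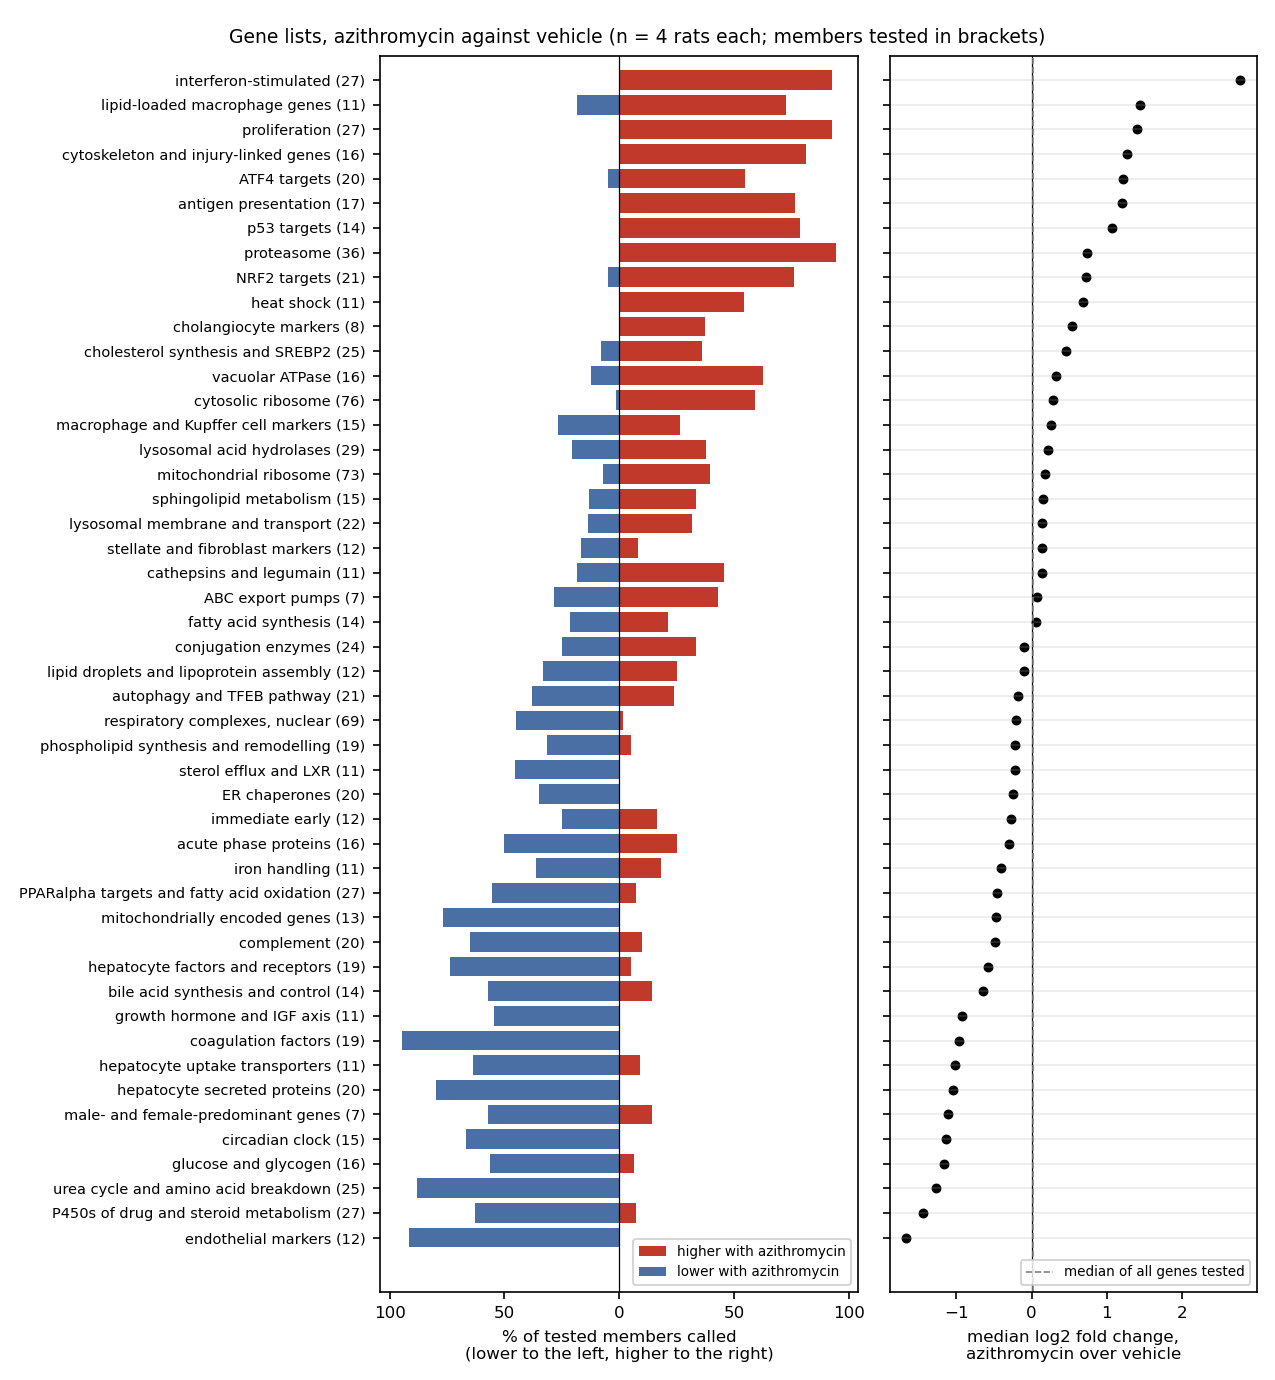
Gene lists with at least 7 tested members, ordered by median. Left, percent of tested members called higher (right of 0) or lower (left of 0) in azithromycin rats; right, median log2 fold change of azithromycin over vehicle, with the median of all genes as a dashed line. The interferon list is at the top with a median of 2.77, and the endothelial and P450 lists are at the bottom with -1.66 and -1.44.

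The largest increases over all genes included genes hardly present in the study's own vehicle rats. Akr1b7, an aldose reductase family gene best known from adrenal gland and vas deferens, had 1769 counts over the azithromycin rats and none over the vehicle rats, at least 363-fold higher against a floor of 3 counts over the vehicle group. Without azithromycin rat 2 the bound for Akr1b7 was 128-fold. On the shared scale Akr1b7 ran from 3.19 to 46.2 CPM in azithromycin rats and from 0 to 49.1 CPM in the 89 vehicle rats. The lowest azithromycin level of Akr1b7 was reached by 4 of those 89 rats and by 14 of the 113 other treated rats. Its values of 3.80, 54.6, 5.87 and 10.5 CPM in azithromycin rats were led by rat 2, and its adjusted p of 0.0256 became 0.0549 without vehicle rat 1, 0.0520 without vehicle rat 3 and 0.0895 with no filter on low counts (edgeR). The interferon-inducible GTPase gene Gbp3 had 628 counts and Tsc22d4 had 481 after azithromycin, and none after vehicle (at least 129-fold and 98.6-fold higher). Gbp genes share sequence, so reads may be divided among them. Gucy2c, the guanylin receptor of intestine, had 469 counts after azithromycin and 1 after vehicle, a scaled ratio of 289 (95% counting interval 51.5 to 11419). Without vehicle rat 4, which held that count, Gucy2c was at least 74.8-fold higher. On the shared scale its lowest azithromycin level was reached by 0 of the 89 vehicle rats and 17 of the 113 other treated rats. Vxn was at 22.9, 14.2, 28.4 and 14.4 CPM in azithromycin rats and at 0.150, 0.0658, 0.0685 and 0.488 CPM in vehicle rats, without overlap (log2 fold change 6.72). Its scaled ratio of counts was 108 (95% counting interval 58.3 to 225), and 209 without vehicle rat 4. The lipocalin gene Pbsn, the glutathione transferase gene Gstm3l and the glutamate receptor gene Grin2c completed the 12 largest increases with Oasl, Mmp12, Ifit1 and Rsad2, at log2 fold changes of 6.55, 6.53 and 6.25. Pbsn had a scaled ratio of counts of 109 (95% counting interval 42.5 to 402), which was 52.0 without azithromycin rat 4 and 170.1 without vehicle rat 4. For Gstm3l the ratio was 96.0 (95% counting interval 54.8 to 186). For Grin2c it was 85.3 (95% counting interval 36.4 to 263), and 47.6 without azithromycin rat 2.

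Among the 12 largest decreases were genes of steroid, fatty acid and amine handling. The muscle gene Stac3 had 9 counts over the azithromycin rats and 928 over the vehicle rats, a scaled ratio of 0.00597 (95% counting interval 0.00272 to 0.0114), which was 0.0123 without vehicle rat 1. The carbonic anhydrase gene Car3 was at 32.8, 11.5, 48.0 and 36.2 CPM in azithromycin rats and averaged 1228 ± 269 CPM in vehicle rats, far apart (log2 fold change -5.26 ± 0.46 SE, adjusted p = 6.59e-05). The amine methyltransferase Inmt and the superoxide-forming oxidase Nox4 had log2 fold changes of -5.61 and -5.07. Acnat1, an acyl transferase gene, was at 0.371, 0.542, 0.204 and 0.0402 CPM after azithromycin and 97.0, 0.856, 5.76 and 2.84 CPM after vehicle, with vehicle rat 1 far above the rest (log2 fold change -6.49, adjusted p = 0.0216). The log2 fold change of Acnat1 was -3.43 without vehicle rat 1, and the adjusted p was 0.0516, 0.0521, 0.0531 or 0.0552 without azithromycin rat 1, 2, 3 or 4, and 0.0536 with no filter on low counts. Its neighbour in name Acnat2 and the dehydrogenase gene Dhrs7l1 had log2 fold changes of -3.61 and -3.54. Cyp2c11, Sds, Cyp3a18, Cyp2b1 and Dbp completed the 12.

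To place these levels, CPM were computed over 217 of the 680 rats of the series with 1 set of TMM factors. They were the study's own rats, those of the comparison drugs named below and other four-day rats of the same batch number. Among them were the 4 azithromycin rats, 113 rats of 31 other treatments at their labelled doses, and vehicle rats. Of the vehicle rats, 89 were four-day Sprague Dawley rats of the same batch number. Other rats of the series were not looked at. For Rsad2 the azithromycin rats ran from 313 to 476 CPM, the other treated rats from 0.633 to 70.7 with a median of 3.73, and the 89 vehicle rats from 1.31 to 14.2 with a median of 5.06. None of the 89 vehicle rats and none of the 113 other treated rats reached the lowest azithromycin rat for Rsad2, Oasl, Ifit1, Isg15, Irf7, Gpnmb, Mmp12, Krt8 or Fas. Likewise none of either group was as low as the highest azithromycin rat for Kdr or Flt4. For Mx2 and Usp18 a single rat, given diphenhydramine, reached the azithromycin range. Members of the same lists were matched by more rats. The lowest azithromycin level of Lgals3 was reached by 10 other treated rats and 0 of the 89 vehicle rats. That of the p53 target Cdkn1a, a cell cycle inhibitor, was reached by 23 and 6. Stab2 was as low as the highest azithromycin rat in 2 other treated rats, given diltiazem or trimethobenzamide, and in 0 vehicle rats. Kdr ran from 7.95 to 20.5 CPM after azithromycin, against 22.9 to 145 CPM after other drugs and 41.7 to 126 CPM in the 89 vehicle rats.

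Other changes were shared with further drugs. The lowest azithromycin level of Nqo1 was reached by 60 of the 113 other treated rats and by 6 of the 89 vehicle rats, and that of Gsta3 by 28 and 0. For Abcc3 the counts were 8 and 0, and for Asns 20 and 3. Levels of Cyp2c11 as low as the highest azithromycin rat were seen in 15 other treated rats and no vehicle rat, of Slc10a1 in 8 and 0, and of Pck1 in 3 and 0. For Dbp 56 other treated rats and 20 vehicle rats were as low, and for Nr0b2 44 and 7. These shares describe the rats on the shared scale and not all rats of the series. They carry no test, since the drugs differ in dose, strain and number of rats.

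**Figure D3:**
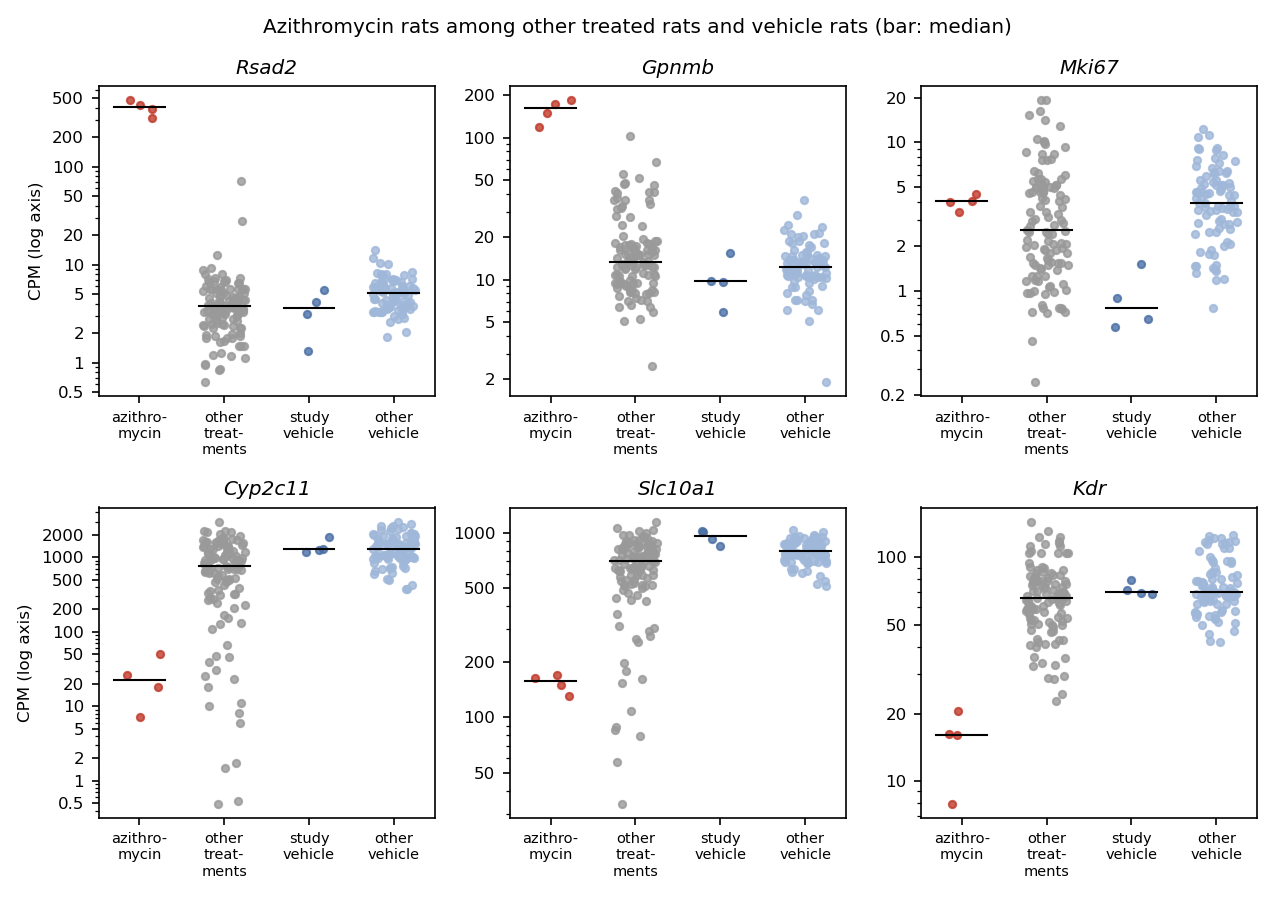
Level of 6 genes in 4 azithromycin rats, 113 rats on other treatments, the study's 4 vehicle rats and 85 other vehicle rats of the batch number; CPM on log axes, points are rats, bars medians. The azithromycin rats stand clear of all others for Rsad2, Gpnmb and Kdr, and lie within the other vehicle rats for Mki67.

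The series holds 3 further macrolides at the same dose and duration, each with 4 rats and 4 vehicle rats of its own. Telithromycin, a ketolide, which carries a keto group in place of the cladinose sugar and a large aryl side chain, was given to Sprague Dawley rats of the same batch number. Clarithromycin, an O-methyl derivative of erythromycin, and erythromycin itself were given to Han Wistar rats of that batch number and shared their 4 vehicle rats. Amiodarone, an unrelated antiarrhythmic drug known to cause phospholipidosis, was given to Han Wistar rats of another batch number and serves as a comparison outside the class. The difference between the azithromycin effect and each other effect was tested in 1 model per pair (edgeR, p-values adjusted over all 4 pairs together). Strain differed in 3 of the 4 pairs, and strain and drug cannot be told apart there. CPM in these fits carry scaling factors of their own and are compared within a pair only.

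Against their own vehicles the other drugs called fewer genes: telithromycin 834 of 13180 (6.33%), clarithromycin 2507 of 13290 (18.9%), erythromycin 0 of 13286 (0%, edgeR, with 1547 at an unadjusted p below 0.05) and amiodarone 780 of 12444 (6.27%). The effect of azithromycin differed from that of telithromycin for 3299 of 13345 genes (24.7%), from that of clarithromycin for 4670 (35.4%), from that of erythromycin for 5023 (37.8%) and from that of amiodarone for 4285 (32.5%). Telithromycin rat 4 stood apart from the other 3 in several genes, and without it the first count was 3898. With all rats the azithromycin effect was higher for 1660 and lower for 1639 of 13345 genes against telithromycin. Against clarithromycin the counts were 2426 and 2244 of 13206 genes, against erythromycin 2588 and 2435 of 13287, and against amiodarone 2222 and 2063 of 13174. The list counts for these pairs below are read against those over all genes.

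Interferon genes separated azithromycin from every other drug. The azithromycin effect was higher for 26 of 27 genes against telithromycin, 25 against clarithromycin, 24 against erythromycin and 22 against amiodarone, and lower for none. The list's median log2 fold change was -0.56, -0.39, -0.07 and 0.39 after these 4 drugs in turn. Rsad2 was at 2.44, 1.59, 2.69 and 2.02 CPM after telithromycin and 3.83, 3.46, 5.59 and 4.72 CPM in its vehicle rats. After clarithromycin it was at 0.937, 1.90, 0.918 and 1.25 CPM, after erythromycin at 1.88, 3.92, 1.00 and 2.88 CPM and in their shared vehicle rats at 4.63, 5.87, 5.15 and 2.29 CPM. No rat of these groups came near the azithromycin rats. The difference of effects was 7.87 on the log2 scale against telithromycin (95% interval 6.90 to 8.83, adjusted p = 3.72e-08), 8.71 against clarithromycin and 7.70 against erythromycin. With amiodarone the differences were 7.17 for Rsad2 and 2.86 for Irf7 (95% interval 1.54 to 4.18). Gpnmb differed by 4.18, 4.31, 4.36 and 2.57 against the 4 drugs in the same order.

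The P450 response differed between the macrolides. Cyp3a23/3a1 was at 43937, 60697, 37014 and 46028 CPM after telithromycin and 4044, 2867, 3303 and 3788 CPM in its vehicle rats, all treated rats being far above. After clarithromycin it was at 48160.0, 46351, 45248 and 45461 CPM and in the shared vehicle rats at 3288, 3586, 3003 and 3966 CPM, again without overlap. On the log2 scale the azithromycin effect on Cyp3a23/3a1 minus the telithromycin effect was -6.80 (95% interval -7.61 to -5.99, adjusted p = 3.05e-08). The difference was -6.79 against clarithromycin and -3.96 against erythromycin. Of the 27 P450 genes, the azithromycin effect was lower for 16, 20, 15 and 19 against telithromycin, clarithromycin, erythromycin and amiodarone. Cyp2c11 was at 787, 1731, 1471 and 32.6 CPM after telithromycin, in which rat 4 alone was as low as the azithromycin rats. Other genes among the 5 most negative differences against telithromycin were Inmt (-6.18), the glucuronosyltransferase gene Ugt1a3 (-6.14), Cyp3a18 (-6.04) and Cyp2b2 (-5.59).

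The endothelial decrease also set azithromycin apart. The azithromycin effect was lower for 8, 9, 9 and 10 of 12 markers against telithromycin, clarithromycin, erythromycin and amiodarone, whose own medians were -0.31, -0.38, -0.10 and -0.06. Kdr was at 56.3, 35.5, 74.5 and 57.6 CPM after telithromycin and 71.9, 60.9, 74.5 and 73.2 CPM in its vehicle rats, with overlap. Its difference of effects was -1.89 (95% interval -2.59 to -1.18, adjusted p = 5.79e-04). The bile salt importer Slc10a1 differed by -1.94 against telithromycin, -2.58 against clarithromycin and -2.95 against erythromycin. Of 25 urea cycle and amino acid breakdown genes the azithromycin effect was lower for 14, 12, 20 and 14 in the same order.

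The proteasome and Nrf2 lists gave counts that varied between the pairs. Proteasome genes had a median log2 fold change of 0.68 after telithromycin and 0.76 after clarithromycin, where 31 of 36 were called higher, and of -0.06 after erythromycin. The azithromycin effect was higher for 3, 3 and 34 of 36 genes against telithromycin, clarithromycin and erythromycin. Psmd14 was at 62.4, 68.3, 35.3 and 109 CPM after telithromycin and 27.5, 23.8, 29.8 and 31.5 CPM in its vehicle rats, without overlap. The difference of effects for Psmd14 was 0.18 (95% interval -0.54 to 0.90) against telithromycin and 0.32 (95% interval -0.08 to 0.72) against clarithromycin, neither of them called, and 1.77 (95% interval 1.39 to 2.15) against erythromycin, which was called. Of 21 Nrf2 targets the azithromycin effect was higher for 1, 3 and 13 and lower for 1, 6 and 1 against telithromycin, clarithromycin and erythromycin. Akr7a3 had a difference of 0.18 against telithromycin, not called, with a 95% interval of -1.32 to 1.67 that holds sizeable differences either way. For Nqo1 it was 0.73 (95% interval -0.83 to 2.30) against telithromycin and 1.33 (95% interval -0.54 to 3.19) against clarithromycin, neither called, and 2.96 against erythromycin, called. Abcc3 was at 36.9, 11.4, 6.95 and 119 CPM after telithromycin and 3.92, 4.36, 2.64 and 3.10 CPM in its vehicle rats, and its difference of 0.92 (95% interval -0.96 to 2.80) was not called. Without telithromycin rat 4 the difference for Abcc3 was 2.15 and was called (adjusted p = 0.0124).

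Among lysosomal genes, Manba was at 60.3, 42.3, 31.3 and 110.1 CPM after telithromycin and 18.9, 17.9, 18.9 and 21.6 CPM in its vehicle rats, with no overlap. Its difference of effects was 0.14 (95% interval -0.70 to 0.98) against telithromycin, not called, and 1.67 (95% interval 1.21 to 2.14) against erythromycin, called. Ctsd gave -0.17 (95% interval -0.74 to 0.41) and 0.97 (95% interval 0.70 to 1.24) for the same pairs, again called against erythromycin alone of the 2. Of 29 acid hydrolases the azithromycin effect was higher for 4, 9, 10 and 9 against telithromycin, clarithromycin, erythromycin and amiodarone. It was lower for 2, 4, 5 and 4 in the same order. Over all genes 24.7%, 35.4%, 37.8% and 32.5% were called in these pairs, split nearly evenly between the directions.

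Lipid genes set amiodarone apart. Cholesterol synthesis genes had a median log2 fold change of 0.46 after azithromycin and 1.48 after amiodarone, which raised 23 of 25, and the azithromycin effect was lower for 11 of them. PPARalpha targets had medians of -0.46 after azithromycin and 0.56 after amiodarone, with the azithromycin effect lower for 22 of 27. Ehhadh was at 5243, 3854, 3980.4 and 4526 CPM after amiodarone and 1599, 1705, 1411 and 1313 CPM in its vehicle rats, the treated rats being above. Its difference of effects was -2.95 (95% interval -3.43 to -2.47, adjusted p = 2.93e-07).

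**Figure D4:**
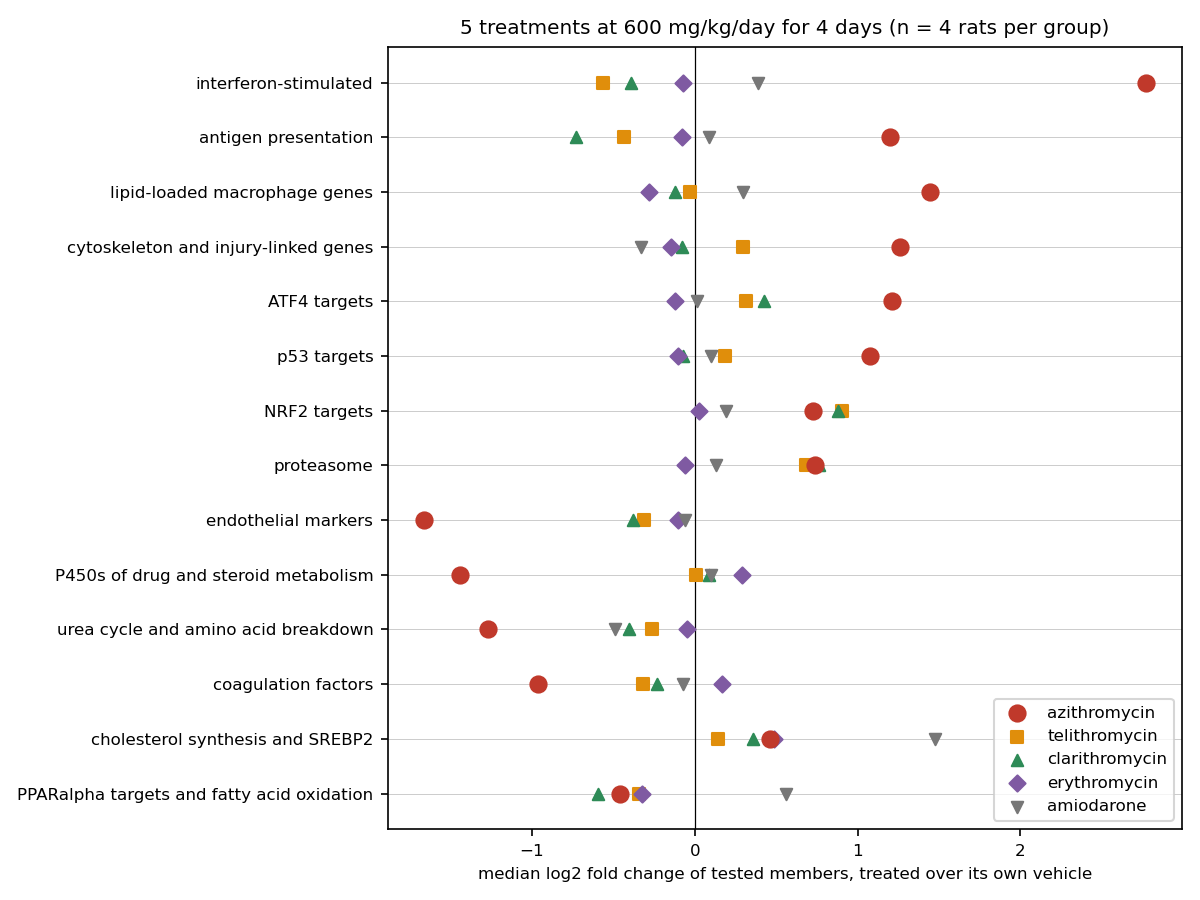
Median log2 fold change of tested members of 14 gene lists after azithromycin, telithromycin, clarithromycin, erythromycin and amiodarone, each over its own vehicle rats (n = 4 rats per group). Azithromycin stands to the right of the others for the interferon, antigen presentation and p53 lists and to the left for the endothelial, P450 and coagulation lists, while the proteasome medians of azithromycin, telithromycin and clarithromycin lie close together.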

How the data were processed

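Liver RNA was extracted with a MagMAX kit and sequenced from TruSeq Stranded mRNA HT libraries, per the labels' protocols. The authors deposited a table of expected counts per Ensembl gene, which need not be whole; the build is Rnor 6.0 per the submitters' processing notes, and the aligner and the quantifier are not given in the sources used here. The deposited expected counts were rounded to whole counts, and libraries of the same rat were summed. Of the library columns, 229 were used and 514 were not.

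Azithromycin and vehicle rats (4 each) were compared with edgeR 4.0.16 in R 4.3.3 (filterByExpr, TMM factors, robust quasi-likelihood F test, Benjamini-Hochberg adjustment over all genes tested, threshold 0.05). The effects of 2 drugs were compared in 1 fit per pair over 4 groups, with p-values adjusted over all 4 pairs. A CPM is a count after the TMM-scaled library total is set to 1000000. Where a vehicle group had no counts, the fold was computed against a floor of 3 counts over the group, and where either group had at most 12, an exact 95% interval for the ratio of counts is given in the report. Intervals of that kind and floors cover counting error only. In the main comparison the labels give each of the 8 libraries an animal of its own. The 4 vehicle rats of telithromycin had 8 libraries, and the 4 shared by clarithromycin and erythromycin had 12, summed per rat. The spread is that between animals. The fits were tested on simulated data. Alternatives were RLE factors, upper quartile scaling, library totals, DESeq2 1.42.0, no filter on low counts, RNA integrity as a covariate, a RefSeq gene table deposited by the authors, all 89 vehicle rats of the batch number, and leaving out each rat. Fits within 1 flow cell were added after the data were seen.

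The rats, the 51 gene lists (1109 entries, of which 1064 matched a symbol) and the tests were chosen with earlier results of these data known. Named genes are up to 6 called members per list with the largest change, up to 3 that moved against the majority, and, over all genes and with list members among them, the 12 largest increases and the 12 largest decreases with a mean of at least 5 CPM, a proper symbol and no overlap between groups. Any other gene, such as those reported as not called, Irf7, Mx2, Herc6, Usp18, Mki67, Ctsd, Otc, Cps1, Ttr, Tfeb and Cyp2c13, was chosen after its values were seen. Some genes that the rule names are not reported here. Levels across rats were planned over all rats of the series and were computed over 217. Promoter sequences are from RefSeq, build GRCr8, and other coordinates are not given. Tables and figures were made with Python 3.11.15, pandas 2.3.3 and matplotlib 3.10.9.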

Additional observations from a re-analysis of the deposited data

Results flagged for a closer look

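Per gene and group, the rat farthest from the other 3 was compared with the whole range of the group (Dixon's ratio at its 95% critical value). Of 327 groups of 4 rats tested, 18 passed, where chance alone gives about 1 in 20. They were spread over all 8 rats.

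Azithromycin rat 2 was high for Akr1b7, at 54.6 CPM against 3.80 to 10.5 CPM in the other 3, for Mrc1 at 53.9 CPM, for Sqstm1 at 1014 CPM and for Cyp1b1 at 0.792 CPM. Azithromycin rat 4 was high for Acox2 at 315 CPM and for Fas at 35.8 CPM, and low for Apoe at 9319 CPM. Azithromycin rat 1 was high for Mthfd2 at 7.18 CPM and azithromycin rat 3 for Foxa1 at 11.9 CPM.

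Vehicle rat 1 was high for Acnat1 at 97.0 CPM against 0.856 to 5.76 CPM in the other 3, for Lcn2 at 6.77 CPM and for Tek at 18.1 CPM. Vehicle rat 2 was low for Otc at 421 CPM. Vehicle rat 3 was high for Abcc3 at 8.43 CPM, for Cyp2b1 at 259 CPM and for Gpt at 454 CPM. Vehicle rat 4 was high for Ccng1 at 30.5 CPM and for Cyp1b1 at 0.325 CPM.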

How the results depend on the processing

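The call counts moved by less than 1.5 times under RLE factors (6058 genes called), upper quartile scaling (6052), DESeq2 (6331), no filter on low counts (5900), RNA integrity as a covariate (5823), the RefSeq gene table (6871) and all vehicle rats of the batch number (6208). Library totals alone called 7557 genes higher and 900.0 lower, and 3105 with at least a 2-fold change. Within 1 flow cell 2089 genes were called higher. Leaving out 1 rat gave 2694 to 2954 genes higher, 2531 to 2842 lower and 1915 to 2032 with at least a 2-fold change. Differences from telithromycin ran from 2796 to 3898 genes, from clarithromycin 4285 to 4665, from erythromycin 4619 to 4912 and from amiodarone 3905 to 4222. No paired analysis was possible because the labels number no replicates and the numbers were given in accession order.

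With library totals the sign turned for Rpl10 (0.041), Calr (0.162), Dnajc3 (0.183), Elovl5 (0.054), Hjv (0.0996), Slc17a5 (0.045), Lamp2 (0.132), Mrpl43 (0.146), Mrpl28 (0.150), Pcyt2 (0.057), Cept1 (0.080), Cers2 (0.235), Atp6v0d1 (0.183), Gclm (0.065) and Npc1 (0.320). Against all vehicle rats of the batch number it turned for Prlr (-0.016), Acot1 (-1.27), Acot2 (-0.209), Top2a (-0.126), Cdk1 (-0.075), Ccna2 (-0.063), Mki67 (-0.101) and Cyp8b1 (-0.385), and for Hspa5 leaving out 1 rat gave -0.014 to 0.156. Of the effect differences from telithromycin, none of them called, that of Akr7a3 ran from -0.102 to 1.03, that of Ctsd from -0.313 to 0.070, that of Manba from -0.073 to 0.593 and that of Psmd14 from -0.037 to 0.491 when 1 rat was left out. The difference for Akr7a3 also turned to -0.096 and -0.072. With library totals Sesn2, Apob, Adgre1, Mrc1 and Tfeb lost their edgeR call, and against all vehicle rats Srebf1, Hspe1, Cyp1b1 and Aurkb did. The cause was not tested.

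Within 1 flow cell, counts of more than 2 list members that moved by over 1.5 times became 7 of 17 higher for antigen presentation, 15 of 27 for proliferation, 2 of 25 for cholesterol synthesis, 5 of 16 for vacuolar ATPase, 2 of 22 for lysosomal membrane, 3 of 21 for autophagy, 1 of 15 for macrophage markers, 14 of 73 for mitochondrial ribosome and 12 of 76 for cytosolic ribosome. Lower counts became 3 of 24 for conjugation, 2 of 15 for macrophage markers, 5 of 13 for mitochondrially encoded genes, 3 of 73 for mitochondrial ribosome and 20 of 69 for nuclear respiratory genes. This fit has 3 azithromycin rats and 2 vehicle rats. Against all 89 vehicle rats the same kind of counts became 9 of 27 higher for proliferation, 3 of 11 for heat shock, 3 of 22 for lysosomal membrane, 2 of 15 for macrophage markers, 1 of 12 for lipid droplets and 5 of 8 for cholangiocyte markers, and 5 of 22 lower for lysosomal membrane, 9 of 19 for hepatocyte factors, 5 of 13 for mitochondrially encoded genes and 3 of 73 for mitochondrial ribosome. Only a bound is given where a group had no counts. The ratios of Gucy2c and Slc7a11 rest on 1 and 2 vehicle counts and carry wide 95% counting intervals (51.5 to 11419 and 6.76 to 212).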

Other observations

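Further lipid genes changed in both directions, read against 24.8% higher and 22.3% lower of all genes. Of 15 sphingolipid genes 5 were higher and 2 lower, led by the sphingomyelinase gene Smpd3 and the serine palmitoyltransferase gene Sptlc2 (log2 fold changes 1.26 and 1.05). Of 14 fatty acid synthesis genes 3 were higher and 3 lower, 21.4% each and near the shares of all genes. The elongase gene Elovl6 (1.85) and the malic enzyme gene Me1 (1.75) were among the higher, and their regulator Srebf1 (-1.50) among the lower. Lipid droplet and lipoprotein genes gave 3 higher and 4 lower of 12 (median -0.10, 0.40 with library totals). The droplet protein gene Cidea was at 12.0, 10.5, 8.32 and 9.70 CPM in azithromycin rats and at 3.24, 1.98, 3.63 and 3.49 CPM in vehicle rats, and Apob, the scaffold of lipoprotein particles, had a log2 fold change of -0.63.

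Heat shock genes were higher in 6 of 11 and lower in 0 (3 higher against all 89 vehicle rats), led by the mitochondrial chaperone genes Hspe1 and Hspd1 (log2 fold changes 0.94 and 0.77). Of 11 iron genes 2 were higher and 4 lower (median -0.41, 0.10 with library totals). The transferrin receptor gene Tfrc rose (1.35), and Bmp6 and the iron-sensing receptor gene Tfr2, both of which act in hepcidin control, fell (-1.40 and -0.97). Of 12 immediate early genes 2 were higher and 3 lower (median -0.27, 0.23 with library totals). Erythroid markers summed to 54.4 to 402 CPM in azithromycin rats and 275 to 637 CPM in vehicle rats, which overlap.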
